A study of Homo sapiens with 12 samples.

Results

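The cytosolic ribosomal protein genes encode the protein part of the ribosome. Members were taken by symbol from the RefSeq annotation of GRCh38: protein-coding genes on the autosomes and X named RPL or RPS with a number and an optional A, X or L, together with RPSA, RPLP0, RPLP1 and RPLP2. This gave 81 genes of 19974 protein-coding genes on these chromosomes, 32 of the small (40S) subunit and 49 of the large (60S) subunit. The members lie on 21 chromosomes, with 12 on chromosome 19. They are short, with a median length of 5015 bp (772 to 27723 bp) against 24170.5 bp for all protein-coding genes.

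Ribosomes join amino acids in the order that the messenger RNA gives. The 40S subunit decodes the message and the 60S subunit forms the peptide bond. Ribosomal protein genes are among the most actively transcribed genes of dividing cells, and most of their messenger RNAs begin with a run of pyrimidines, the terminal oligopyrimidine tract, through which mTOR signalling sets their translation. Many of the genes carry small nucleolar RNAs, guides for the modification of ribosomal RNA, in their introns.

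The study profiled open chromatin by ATAC-seq, in which a transposase cuts the DNA it can reach, in cells of the established prostate cancer line 22Rv1 (human). The 12 samples form 4 groups of 3, treated for 6 h with vehicle, with enzalutamide (1 µM), with OSU-ERb-12 (100 nM) or with both agents. All groups carry the same genotype label, WT, and the labels of the combined treatment give no doses. Enzalutamide blocks the androgen receptor, whereas OSU-ERb-12 binds oestrogen receptor beta. The data are 3 lists of regions on hg38, 1 per treatment, taken to come from comparisons with the single vehicle group, which all 3 would then share. Matching the list with the prefix WT to OSU-ERb-12 rests on sample titles. A listed region is a place and nothing more: the lists give no value per sample, no height and no p, and the sources used here do not give the direction of the listed differences. All 3 list names carry the abbreviation neg, which no source used here defines, so the lists may hold differences in 1 direction only. Results are therefore counts and positions without replicate error, no test could be made over samples, and no statement of gain or loss can be drawn. Sequencing depth is unknown from the lists. The enzalutamide list holds 25317 regions, the OSU-ERb-12 list 17931 and that of both agents, the combination, 6248, so a larger count in one list can follow from its length.

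Enzalutamide regions lay at the ends of many ribosomal protein genes. A region came within 1 kb of either end of the gene in 38 of the 81 members (46.9%), among them RPLP1, RPL4, RPS2 and RPS21 with 3 regions each. The same rule called 28.3% of all protein-coding genes, and 24.8% of the 10688 that are no longer than the longest member. The share of members was thus above the background by both counts. For OSU-ERb-12 the number was 9 members (11.1%, background 7.9%, short genes 7.72%), and for the combination 5 (6.17%, background 5.52%, short genes 5.54%). The combination share is near its background and the OSU-ERb-12 share differs from its background by few genes.

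**Figure D1:**
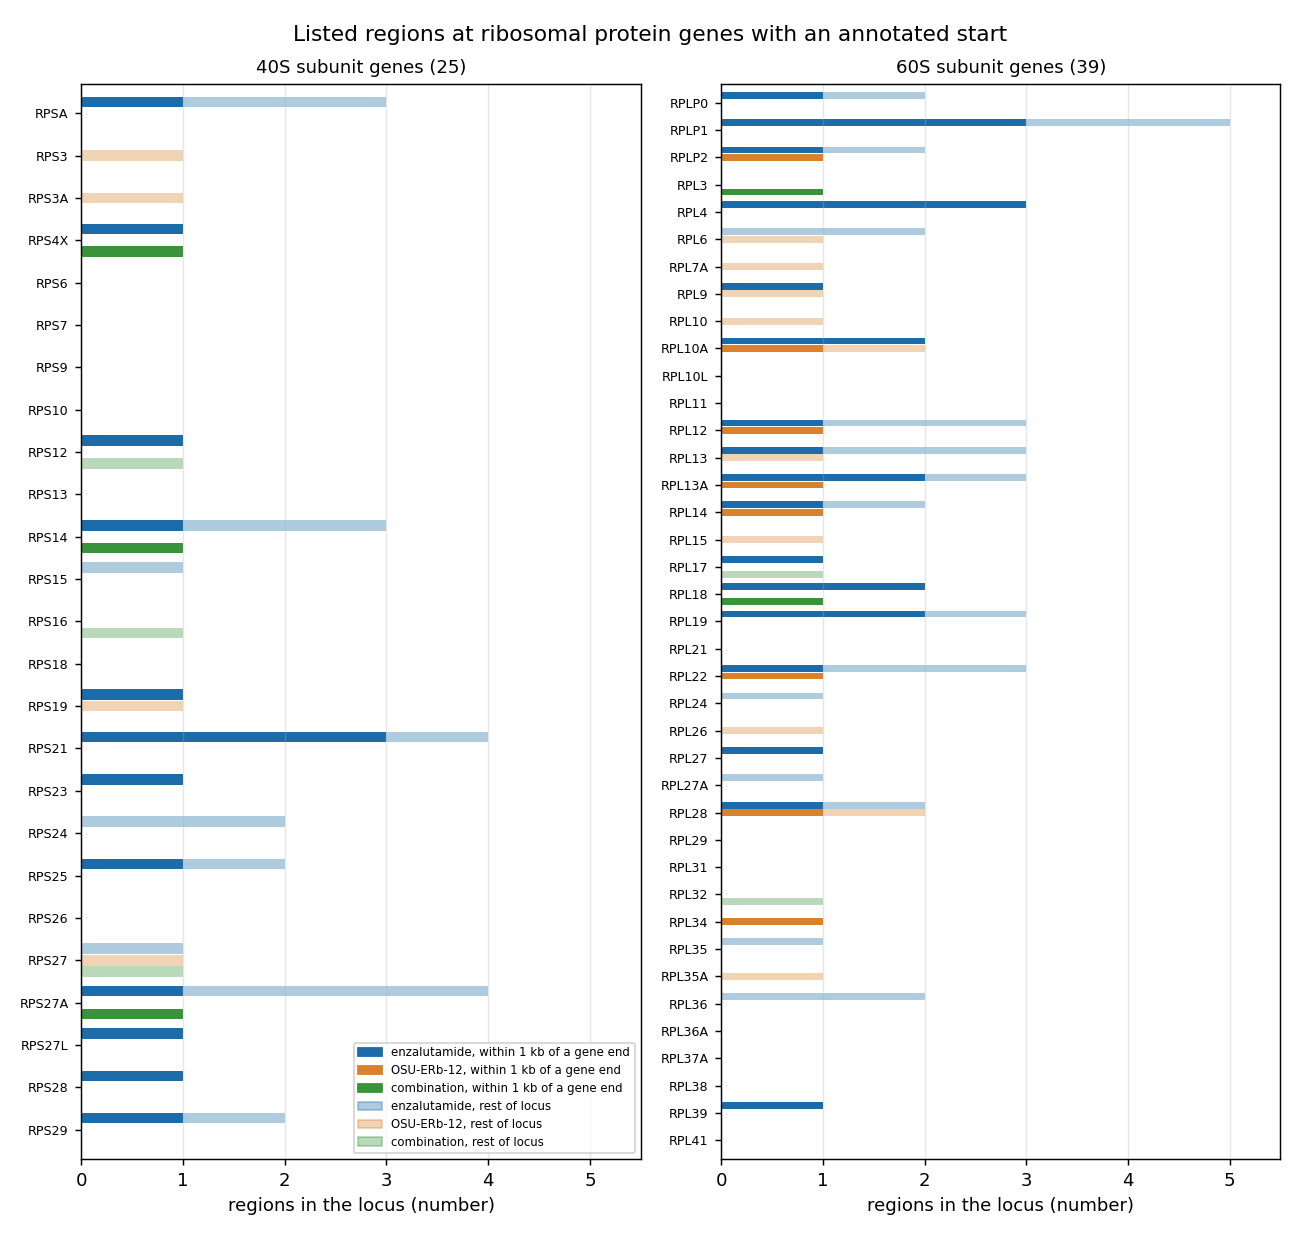
Number of listed regions (x axis) around the 64 ribosomal protein genes with an annotated start in the promoter table (y axis), counted over the gene and 10 kb to each side; solid bars count regions within 1 kb of a gene end and pale bars the rest, in blue for enzalutamide, orange for OSU-ERb-12 and green for the combination. RPLP1 has the longest bar, with 5 enzalutamide regions, and 16 of the 64 genes have no bar.

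Over the wider locus, which takes in the gene and 10 kb to each side, the enzalutamide excess was smaller. The OSU-ERb-12 and combination shares lay below the background of all genes. Enzalutamide regions lay in the locus of 50 members (61.7%, background 58.4%; 47.6% of genes no longer than the longest member). OSU-ERb-12 regions lay in 25 loci (30.9%, background 39.3%; 28.5% of the short genes) and combination regions in 12 (14.8%, background 21.8%; 16.3% of the short genes). Locus counts grow with gene length, and the members are short, so the background of short genes is the nearer one. It is not matched for length, because it takes in genes up to 27723 bp against a member median of 5015 bp. In distinct regions there were 93 for enzalutamide, 52 of them at a gene end, 28 for OSU-ERb-12 (9 at a gene end) and 12 for the combination (5 at a gene end).

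Counts were also made by subunit, beside gene-end backgrounds of 28.3% (enzalutamide), 7.9% (OSU-ERb-12) and 5.52% (combination) over all protein-coding genes. For enzalutamide, 16 of 32 genes of the 40S subunit (50%) and 22 of 49 of the 60S subunit (44.9%) held a gene-end region. All 9 members with an OSU-ERb-12 region at an end were 60S genes, 18.4% of that subunit, against 0 of 32 for the 40S subunit. OSU-ERb-12 regions lay in the locus of 7 of 32 40S genes (21.9%) and 18 of 49 60S genes (36.7%; background 39.3%, short genes 28.5%). The combination list reached 3 genes of the 40S (9.38%) and 2 of the 60S subunit (4.08%). These counts were split by subunit without a test of the difference.

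**Figure D2:**
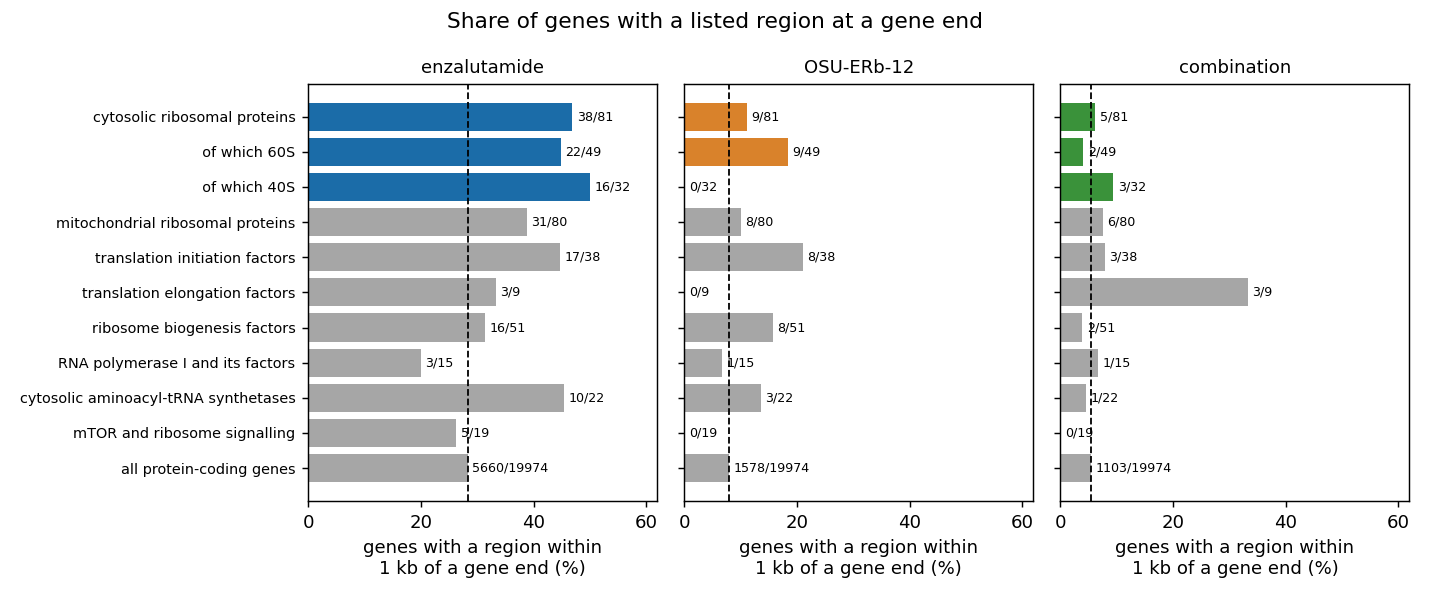
Share of genes (x axis, percent) with a listed region within 1 kb of a gene end, for the ribosomal protein genes (coloured), other translation gene lists (grey) and all protein-coding genes (lowest bar and dashed line), with the number of genes beside each bar. The enzalutamide bar of the ribosomal protein genes reaches 46.9% against 28.3% for all genes, close to those of the initiation factors (44.7%) and the tRNA synthetases (45.5%).

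Of the 81 members, 64 have an annotated start and strand in the RefSeq promoter table, at the outer edge of the gene for 62 of them, so that start and far end could be told apart. Enzalutamide regions lay within 1 kb of the start in 24 of these 64 genes (37.5%, background 27%) and within 1 kb of the far end in 9 (14.1%, background 4.81%). For OSU-ERb-12 there were 4 genes at the start (6.25%, background 5.91%) and 4 at the far end (6.25%, background 2.54%), and for the combination 3 (4.69%, background 4.64%) and 2 (3.12%, background 1.32%). These backgrounds take in genes of all lengths, and none was counted for short genes only. In a short gene the windows of start and far end can overlap, and 1 enzalutamide region at RPS21 counted for both. The annotated start itself was seldom inside a region: 4 of the 30 enzalutamide regions near a start covered it (13.3%), as did 17.2% of 4795 such regions over all genes. The regions lay on either side of the start, 16 with the midpoint upstream and 14 downstream, with a median midpoint at -21.5 bp for the members and 122.5 bp for all genes.

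**Figure D3:**
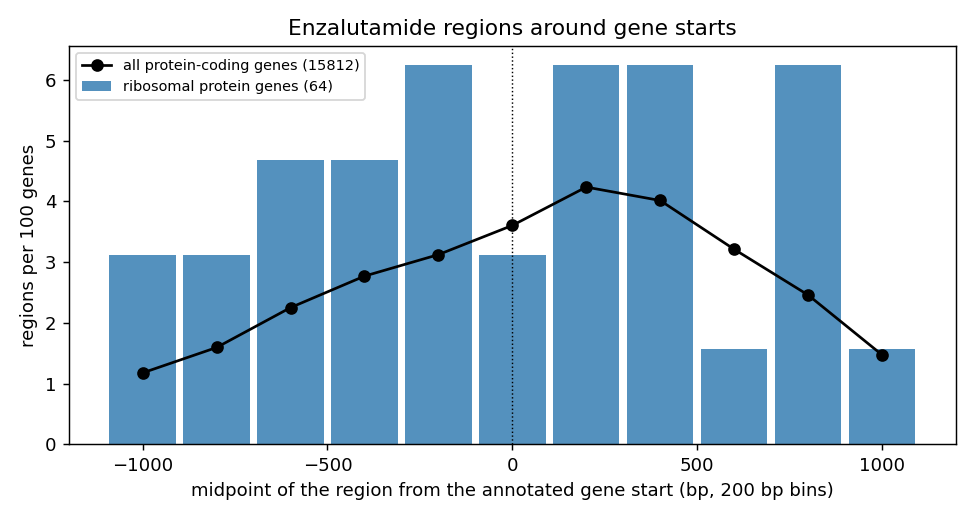
Enzalutamide regions per 100 genes (y axis) by the distance of their midpoint from the annotated gene start in 200 bp bins (x axis), for 64 ribosomal protein genes (bars) and 15812 protein-coding genes (line). Each bar rests on 1 to 4 regions; the line peaks just downstream of the start, and the bars show no single peak.

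Promoter sequences are shown for the members whose window of 250 bases before to 50 after the start was entered by regions of the most lists or over the most bases. Each runs 5′ to 3′ from 120 bases before the start and ends 20 bases from the start on, in RefSeq sequence of GRCh38.p14. Capitals mark the pyrimidine run at the start where the first base is C.
RPS4X (chrX:72277229-72277368, minus strand): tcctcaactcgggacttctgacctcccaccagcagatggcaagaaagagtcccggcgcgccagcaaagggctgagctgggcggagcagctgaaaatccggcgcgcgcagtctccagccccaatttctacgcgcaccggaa
RPL39 (chrX:119791611-119791750, minus strand): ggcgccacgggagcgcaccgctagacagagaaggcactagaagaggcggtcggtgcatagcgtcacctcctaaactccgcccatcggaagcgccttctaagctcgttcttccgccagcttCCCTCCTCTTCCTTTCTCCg
RPL13A (chr19:49487488-49487627, plus strand): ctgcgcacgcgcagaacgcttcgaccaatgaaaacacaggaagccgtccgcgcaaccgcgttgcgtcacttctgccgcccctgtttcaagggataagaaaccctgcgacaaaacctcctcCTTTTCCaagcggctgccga
RPL18 (chr19:48619159-48619298, minus strand): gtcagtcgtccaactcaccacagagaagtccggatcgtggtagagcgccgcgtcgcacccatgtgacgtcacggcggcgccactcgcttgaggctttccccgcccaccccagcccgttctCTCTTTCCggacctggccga
RPLP1 (chr15:69452698-69452837, plus strand): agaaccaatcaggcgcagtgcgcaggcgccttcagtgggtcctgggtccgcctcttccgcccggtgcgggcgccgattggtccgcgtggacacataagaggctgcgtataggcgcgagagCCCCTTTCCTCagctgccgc
RPS25 (chr11:119018324-119018463, minus strand): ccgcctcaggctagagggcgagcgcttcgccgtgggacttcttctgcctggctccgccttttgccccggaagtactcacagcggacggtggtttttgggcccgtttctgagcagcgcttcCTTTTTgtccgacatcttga
RPS19 (chr19:41860135-41860274, plus strand): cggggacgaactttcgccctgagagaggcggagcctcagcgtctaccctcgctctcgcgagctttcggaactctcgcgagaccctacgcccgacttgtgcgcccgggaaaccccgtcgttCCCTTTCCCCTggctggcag
RPLP2 (chr11:809847-809986, plus strand): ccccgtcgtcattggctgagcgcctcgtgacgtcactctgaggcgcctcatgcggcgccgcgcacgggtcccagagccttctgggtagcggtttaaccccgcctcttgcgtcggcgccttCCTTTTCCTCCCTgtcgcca
In 7 of these 8 promoters the first transcribed base is C and opens a run of 6 to 19 pyrimidines. Enzalutamide regions entered the windows of 8 of the 64 members (12.5%, background 9.9%). The region covered all 300 bases of the RPL39 window, 298 of the RPS4X window, 193 of RPL13A and 172 of RPL18. It covered 133 bases for RPLP1, 107 for RPS25, 96 for RPS19 and 84 for RPLP2. RPS4X is the exception in sequence, without such a run at its annotated start. It is also the only one of these 8 whose window held a combination region, over 198 bases, and no OSU-ERb-12 region entered any of the 64 windows (background 1.28%). The other member with a combination region in its window was RPS27A, by 2 bases, which makes 2 of 64 members (3.12%, background 2.04%).

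A start of this kind, a C followed by 4 or more C or T, was found in 42 of the 64 members (65.6%) and in 4.59% of all protein-coding genes with a promoter entry. Members with and without listed regions both had it: 14 of the 24 members with an enzalutamide region near the start had it (58.3%), and 28 of the 40 without one (70%). CCGGAAG, a sequence bound by ETS factors such as GABPA, stood on either strand of the 300 bases in 22 of 64 members (34.4%; 14.1% of all genes), 10 of the 24 with and 12 of the 40 without a region. AAGATGGC, which YY1 recognises, stood in 6 (9.38%; 3.86% of all genes), TATAAA in 6 (9.38%; 9.75%), the GC box GGGCGG in 36 (56.2%; 58.3%) and the E-box CACGTG in 3 (4.69%; 8.82%). AGAACA, a half-site of the androgen receptor motif, stood in 9 (14.1%; 11.2%). The searches were made on both strands, and a match is a description of these letters only.

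The P-stalk is the part of the 60S subunit that recruits the elongation factor GTPases, and its 3 genes each held an enzalutamide region within 1 kb of the start (background 27%), too few genes to read a share from. RPLP1 (chromosome 15, 69452818 to 69456205) had the most enzalutamide regions of any member, 5 in the locus. One of 650 bp lay at -767 to -118 bp from the start (69452051 to 69452700), another at 683 to 882 bp, and the last of them, at 69455751 to 69456000, near the far end. A further pair lay 5846 and 9796 bp beyond the gene. The 650 bp region was the widest at any member. RPLP0, which anchors the stalk to ribosomal RNA, held a region at -1039 to -840 bp from its start. RPLP2 (chromosome 11, 809967 to 812876) held an enzalutamide region at -366 to -167 bp from the start and an OSU-ERb-12 region at 810451 to 810700, 484 to 733 bp after it. These sites do not overlap. Both also lie within 1 kb of an end of PIDD1, the neighbouring gene.

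**Figure D4:**
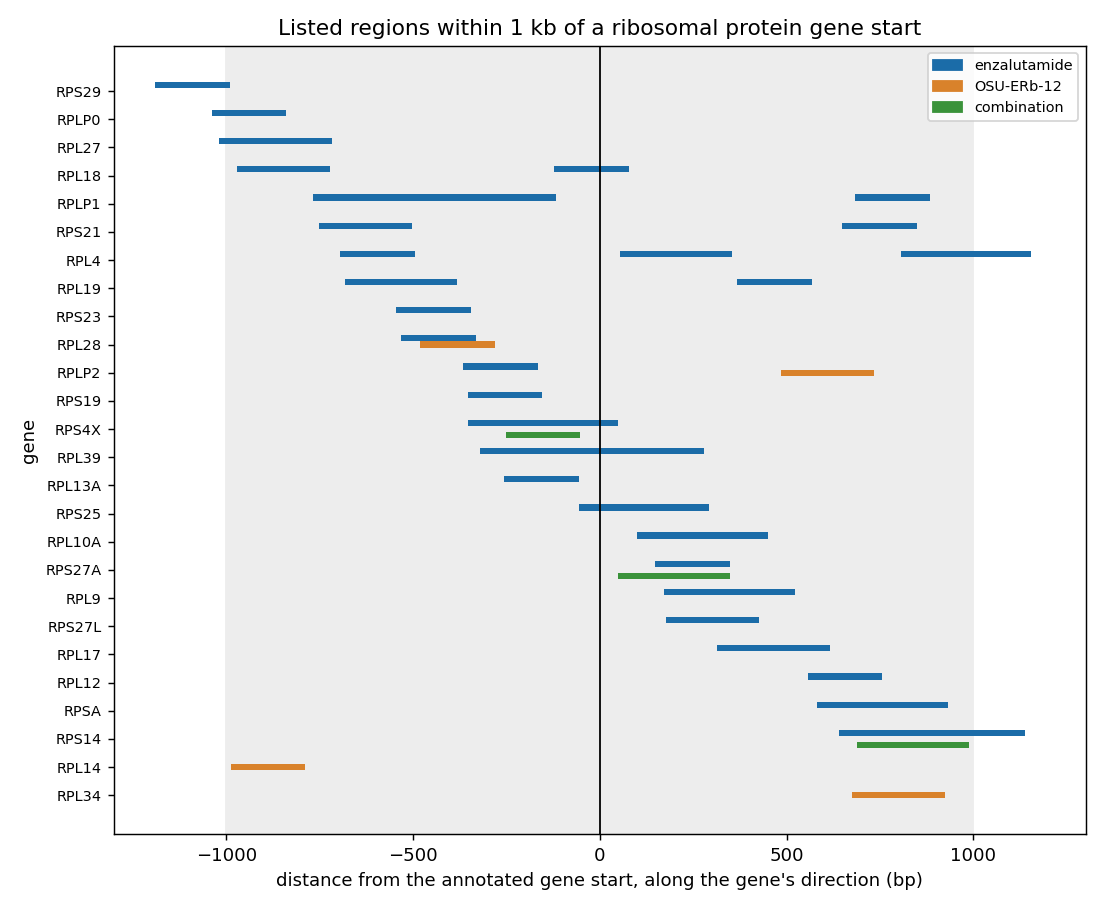
Listed regions within 1 kb (grey band) of the annotated start (vertical line) of ribosomal protein genes, drawn to scale along the gene's direction (x axis, bp), 1 gene per row, in blue for enzalutamide, orange for OSU-ERb-12 and green for the combination. Enzalutamide regions of RPL18, RPS4X, RPL39 and RPS25 cross the start; the others lie before or after it.

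RPL4, whose protein narrows the exit tunnel of the nascent chain, had 3 enzalutamide regions around its start, at -695 to -496, 55 to 354 and 805 to 1154 bp. Those at -695 to -496 and 55 to 354 bp are also within 1 kb of an end of ZWILCH. RPL39, another tunnel protein, held 1 region of 600 bp that spanned its start from -320 to 279 bp (chromosome X, 119791351 to 119791950). RPL17, which lines the tunnel as well, held 1 at 315 to 614 bp, in sequence that the readthrough gene RPL17-C18orf32 shares. RPL23A, at the tunnel's exit, held 1 region 292 bp outside the gene, next to TLCD1. Not every protein of the exit held one: RPL26, RPL31 and RPL35 had no enzalutamide region at an end. These genes are named for their role, and no share was counted for them.

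RPL5 and RPL11 join 5S ribosomal RNA in a particle that can bind MDM2, the ubiquitin ligase of p53. RPL5 (chromosome 1, 92831986 to 92841924) held enzalutamide regions at 92832101 to 92832450 and 92832751 to 92833050. Its OSU-ERb-12 region, at 92832151 to 92832350, lay inside the first of these. All 3 regions are also within 1 kb of an end of DIPK1A. RPL11 held no region of any list in its locus. RPL23, another MDM2-binding protein, held an enzalutamide region of 500 bp at its higher-coordinate end, and RPL26, which binds the p53 messenger RNA, held only an OSU-ERb-12 region 1358 bp outside the gene. Of the 10 genes listed for this checkpoint, 5 held an enzalutamide (50%, background 28.3%), 1 an OSU-ERb-12 (10%, background 7.9%) and 2 a combination region (20%, background 5.52%) at a gene end. With 10 genes, each share rests on 1 to 5 of them.

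Other 60S genes with an OSU-ERb-12 region at an end also had an enzalutamide region at an end, apart from RPL34. No share over all protein-coding genes is given for this, so it cannot be read as particular to these genes. At RPL10A, a protein of the L1 stalk (chromosome 6, 35468401 to 35470780), both lists had a region beyond the far end with the same first base, 35471151 to 35471550 for enzalutamide and 35471151 to 35471500 for OSU-ERb-12, and enzalutamide a further one 100 to 449 bp after the start. At RPL28 the 2 regions lay before the start, at -531 to -332 bp for enzalutamide and at -481 to -282 bp in the OSU-ERb-12 list. Elsewhere the sites of the 2 lists were apart. RPL14 held its OSU-ERb-12 region at -988 to -789 bp from the start and its enzalutamide region at the far end, while RPL12, a protein of the stalk base, held them the other way round. The enzalutamide region near the RPL12 start is also within 1 kb of an end of LRSAM1. RPL22, a 60S protein with a role in T-cell development, held both beyond its far end, 320 bp (OSU-ERb-12) and 720 bp (enzalutamide) outside the gene. RPL34 held only an OSU-ERb-12 region, 675 to 924 bp after its start (chromosome 4, 108621251 to 108621500).

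RPL13A (chromosome 19, 49487608 to 49492308), which also silences translation of inflammatory messenger RNAs as part of the GAIT complex, had enzalutamide regions at 49487351 to 49487550, before the start, and at 49492101 to 49492400, at the far end, and an OSU-ERb-12 region at 49492701 to 49492900. RPS2 and RPL3L on chromosome 16 are neighbours and share the regions between them: RPL3L, the muscle form of RPL3, held none at an end, and its 3 enzalutamide regions all lie in the RPS2 locus. Counts of neighbouring members are therefore not independent.

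Of the 5 members with a combination region at an end, 3 were small subunit genes (9.38% of that subunit, background 5.52%). RPS4X, the X-encoded form of a protein that also has Y-encoded forms, lies on chromosome X at 72272042 to 72277248. Its combination region at 72277301 to 72277500 lay inside the enzalutamide region at 72277201 to 72277600, which crosses the start. RPS14, the gene linked to the anaemia of 5q deletion, held a combination region at 150448751 to 150449050 on chromosome 5 inside an enzalutamide region at 150448601 to 150449100, both downstream of the start. RPS27A, which encodes ubiquitin fused to a ribosomal protein, held a combination region of 300 bp from 48 to 347 bp after the start and an enzalutamide region of 200 bp from 148 to 347 bp. Both are also near an end of CLHC1. In these 3 genes the regions of the 2 lists overlap, and no share of such overlaps over all protein-coding genes is given. If the lists share the vehicle samples, as assumed here, the lists are not independent. The part of this in the overlap was not tested.

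The other members with a combination region at an end were RPL18 and RPL3. RPL18 (chromosome 19, 48615331 to 48619178) held it near the far end and within 1 kb of an end of FAM83E, at 48615901 to 48616100. Its enzalutamide regions were elsewhere, at -122 to 77 bp and at -972 to -723 bp from the start, both also within 1 kb of an end of SPHK2. RPL3, which reaches towards the peptidyl transferase centre, held a combination region within the gene near the far end (chromosome 22, 39313101 to 39313300) and no region of the other lists in its locus. At RPS12 a combination region (132818601 to 132818800 on chromosome 6) lay 1037 bp beyond the gene, just outside the window, and the enzalutamide region at 132818551 to 132818800 lay 987 bp beyond it, just inside.

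RPS2, near the mRNA entry of the 40S subunit, held 3 enzalutamide regions at its ends, 1 of 250 bp at 1961251 to 1961500 that is also at NDUFB10, 1 at 1963701 to 1963900 and 1 at 1965501 to 1965700 on chromosome 16. RPS21 (chromosome 20, 62387103 to 62388520) also held 3, at -752 to -503 bp from the start, at 648 to 847 bp and beyond the far end, the last 2 within 1 kb of an end of CABLES2. Neither gene held an OSU-ERb-12 or combination region in its locus.

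Further 40S genes held 1 enzalutamide region each at an end. RPS19, the gene most often mutated in Diamond-Blackfan anaemia, held it at -354 to -155 bp from the start, and RPS25, which is needed for initiation at some internal ribosome entry sites, at -57 to 292 bp. The RPS25 region is also within 1 kb of an end of TRAPPC4. RPS23, a protein of the decoding centre, had a region at -546 to -347 bp, and RPSA, also known as the laminin receptor precursor, had one at 581 to 930 bp. RPS27L, a paralogue of RPS27 that p53 induces, had one at 177 to 426 bp. RPS28 and RPS29 held theirs 711 and 991 bp outside the gene, inside the neighbours KANK3 and LRR1.

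In the 60S subunit RPL19 held 2 enzalutamide regions around its start, at -682 to -383 and 368 to 567 bp. RPL9 held 1 at 172 to 521 bp, RPL27 1 at -1018 to -719 bp and RPL13 1 near its far end. The RPL9 region is also within 1 kb of an end of LIAS. RPL37 held a region of 600 bp at 40835251 to 40835850 on chromosome 5, 29 bp outside the gene. RPL8, a protein next to the peptidyl transferase centre, held 1 region 219 bp outside the gene. For RPL37 and RPL8 the end could not be called start or far end.

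Of the 20 genes listed for Diamond-Blackfan anaemia, the inherited red cell failure caused by loss of 1 copy of a ribosomal protein gene, 6 held an enzalutamide region at an end (30%), 1 an OSU-ERb-12 region (RPL5; 5%, background 7.9%) and 1 a combination region (RPL18; 5%, background 5.52%). The enzalutamide share is near the background of 28.3%. Over all protein-coding genes, 5821 of 19974 had no region of any list in the locus. Members without one numbered 19 of 81. Among them are RPS6, the substrate of the S6 kinases, the paralogues RPL10L and RPL39L, and RPL11, RPL21, RPL29, RPL30, RPL31, RPL38, RPL41, RPS10, RPS13, RPS18, RPS26, RPS7 and RPS9. Absence from the lists does not show that accessibility stayed the same there.

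A further 22 members had regions in the locus and none at an end, a count given here without a background. RPS20 held 3 OSU-ERb-12 and 2 enzalutamide regions, 1 OSU-ERb-12 region inside the gene and the others 4795 to 7054 bp outside it. RPS27 held 1 region of each list, none inside the gene, with the combination region at 153996301 to 153996500 and the enzalutamide region at 153996301 to 153996550 on chromosome 1, both inside NUP210L. RPL6 held 2 enzalutamide regions and 1 OSU-ERb-12 region, the last inside PTPN11, 3566 bp outside RPL6. Regions this far from a member often lie in a neighbour, so the locus counts describe the surroundings of the genes as much as the genes.

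Members that host small nucleolar RNAs numbered 29, with 60 of these RNA genes among them. An enzalutamide region lay at an end of 17 of the 29 hosts (58.6%) and of 21 of the 52 others (40.4%), against 28.3% of all genes. For OSU-ERb-12 the numbers were 5 (17.2%) and 4 (7.69%; background 7.9%), and for the combination 1 (3.45%) and 4 (7.69%; background 5.52%). The difference between hosts and others was not tested. The regions themselves seldom fell on the RNA genes: 2 enzalutamide regions did, 1 of them at RPL27A (SNORA3A), and 1 OSU-ERb-12 region, at RPL10 (SNORA70). An enzalutamide region lay at an end of 15 of the 30 members that have another gene end within 1 kb (50%) and of 23 of the 51 that have none (45.1%). Of the 52 enzalutamide regions at member ends, 17 were also within 1 kb of an end of another protein-coding gene.

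Region widths at member ends differed little from those of the whole lists for enzalutamide, where 42.3% were 200 bp, the shortest width, against 45.7% of the list. For OSU-ERb-12, 4 of the 9 were 200 bp wide (66.1% in the list), and for the combination 3 of 5 (68%). On chromosome 19, 7 of the 12 members held an enzalutamide region at an end (26.7% of all genes there), and on chromosome 3, 2 of 8 (30.4%).

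Other parts of the translation machinery were counted in the same way. The gene-end backgrounds over all protein-coding genes are 28.3% (enzalutamide), 7.9% (OSU-ERb-12) and 5.52% (combination). Ribosomal proteins of mitochondria, a separate ribosome encoded by nuclear genes for these proteins, had an enzalutamide region at an end in 31 of 80 genes (38.8%), an OSU-ERb-12 region in 8 (10%) and a combination region in 6 (7.5%). MRPL58 held 1 region of each list at its ends. Initiation factors, which bring the subunits to the start codon, gave 17, 8 (21.1%) and 3 (7.89%) of 38, with 2 enzalutamide regions and 1 combination region at EIF1. The 38 genes include EIF4EBP1 and EIF4EBP2, which are not themselves initiation factors and held no gene-end region. Cytosolic tRNA synthetases gave 10, 3 (13.6%) and 1 (4.55%) of 22, with 2, 1 and 1 regions at KARS1. The 22 genes include AIMP1 and AIMP2, which are not synthetases and held no gene-end region. The enzalutamide share of the cytosolic ribosomal proteins was thus close to those of initiation factors (44.7%) and tRNA synthetases (45.5%), and the lists were not tested against each other.

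Ribosome biogenesis factors, which process ribosomal RNA in the nucleolus, gave 16 (31.4%), 8 (15.7%) and 2 (3.92%) of 51, against 28.3%, 7.9% and 5.52% of all genes in the order of lists, and NCL, the nucleolin gene, held 1 region of each list at its ends. RNA polymerase I genes gave 3 (20%), 1 (6.67%) and 1 (6.67%) of 15, led by its factor UBTF with 2 enzalutamide regions and 1 OSU-ERb-12 region. Genes of mTOR and ribosome signalling gave 5 (26.3%), 0 and 0 of 19, and RPS6KB2, an S6 kinase gene, held 3 enzalutamide regions. Elongation factors gave 3 (33.3%), 0 and 3 (33.3%) of 9, with 2 enzalutamide regions and 1 combination region at EEF1A1 and 1 of each of these lists at EEF1G. The 9 genes include the kinase EEF2K, which is not an elongation factor and held no gene-end region. Of 20 other genes with a terminal oligopyrimidine tract, 7 (35%), 4 (20%) and 3 (15%) held a region at an end. The enzalutamide shares of these 5 lists, 20% to 35%, lie near the background. Their OSU-ERb-12 shares run from 0 to 20% (background 7.9%) and their combination shares from 0 to 33.3% (background 5.52%). Each of these shares rests on 8 genes or fewer. The 7 ribosomal proteins and paralogues outside the symbol rule gave 5 (71.4%), 1 (14.3%) and 0, with RACK1 in both single-agent lists and FAU, RPL36AL, RPL22L1 and RPL7L1 in the enzalutamide list.

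Ribosomal protein pseudogenes, most of them processed copies of the messenger RNAs, are numerous and similar in sequence to exons of the members. How similar they are was not measured here. Of 1962 such pseudogenes on the autosomes and X, 17 held a region of the enzalutamide list in the gene body (0.866%, background 1.9% of all 16664 pseudogenes). The OSU-ERb-12 list reached 21 (1.07%, background 1.71%) and the combination list 6 (0.306%, background 0.654%). The ribosomal protein pseudogenes are shorter, with a median of 536.5 bp against 773.5 bp for the other pseudogenes. The shares were below the background in each list, and the part that length or the mapping of repeated sequence has in this was not tested.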

How the data were processed

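ATAC-seq was run on 12 samples of 22Rv1 cells. Per the labels' protocols, ATACSeqQC was used to take out the nucleosome-free fraction; the submitters' processing notes name FastQC, Trimmomatic and hg38. Not given in the sources used here: peak caller, test, threshold, pooling of replicates and treatment of reads with several mapping places. The authors' deposited files hold region positions and a score that is 0 in every row. Boundaries lie on a 50 bp grid, with a shortest region of 200 bp.

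Members and gene lists were chosen with earlier results of these data known. Genes came from RefSeq GRCh38.p14; positions are 1-based. A gene was called if a region overlapped, by 1 bp or more, 1 kb either side of a gene end, or the gene and 10 kb to each side (Python 3.11.15, pandas 2.3.3). Starts, strands and promoters came from RefSeq's promoter table for 64 of 81 members and 15812 genes, with the outermost start where there are several; the other 17 members had no entry. No set test was used. Counts of regions shared between lists were planned but are not given, because the lists are taken to share vehicle samples, which no source used here states. Named are all members with a gene-end region, with 3 or more regions in the locus, or with none, and leading genes of other lists (gene-end regions of several lists, or the most); some members that this covers are counted but not reported here by name. On simulated data, 200 of 200 planted genes were recovered for each window, with 0 others called. The regions were planted inside the windows of genes without near neighbours. This checks the window code only, and not members that lie beside other genes. Alternatives changed windows, overlap rule, region width and members.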

Additional observations from a re-analysis of the deposited data

How the results depend on the processing

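Of 69 recomputed counts of members or regions, 46 stayed within 1.5 times the reported one. With gene starts only, which 17 members lack, members with a region numbered 24, 4 and 3 (enzalutamide, OSU-ERb-12, combination). With regions wider than 200 bp only, there were 51 enzalutamide regions in member loci; OSU-ERb-12 had 5 members at a gene end, 9 in the locus and 9 regions, and the combination 2, 4 and 4. With the gene body only, loci with a region numbered 30, 7 and 4 and regions 38, 7 and 4 in the order of lists. With 20 kb either side, OSU-ERb-12 gave 47 members and 60 regions, and the combination 20 and 20. Counting only regions nearest to the member left 14 loci in the OSU-ERb-12 list and 6 in the combination list. With 500 bp at gene ends the combination gave 3 members. Each of these settings narrows, widens or thins what is counted. The enzalutamide share at gene ends was 33.3% against 20.9% of all genes with 500 bp, 51.9% against 33.7% with 2 kb, 32.1% against 17.4% with wider regions and 44.4% against 26.9% by midpoint. In the same order of settings, OSU-ERb-12 gave 8.64% against 4.73%, 13.6% against 12%, 6.17% against 2.85% and 11.1% against 7.25%. The combination gave 3.7% against 4%, 8.64% against 7.44%, 2.47% against 2.04% and 6.17% against 5.25%. These combination shares rest on 2 to 7 members. No paired analysis was possible because the lists hold no values per sample, and leaving out replicates was not run for the same reason. Depth limits which regions were listed and cannot be read from the lists.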
